A study of Bos taurus with 8 samples.

Results

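The genes described here encode the proteins of the cytosolic ribosome, the particle that translates messenger RNA. They were chosen by name. A probe counted when its gene symbol, or the symbol of its accession, was RPL or RPS followed by a number, with an optional A, L or X, or was RPLP0, RPLP1, RPLP2 or RPSA, while RPS6 kinases were left out. This gave 79 genes of the 16911 named genes on the array and 295 of its 51282 probes. All 79 genes had at least 1 probe bright enough to be tested, and 275 of their probes were tested. RPL41 and RPL39L had no probe under those names.

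Ribosomal proteins assemble with ribosomal RNA into a small subunit, which reads the message, and a large subunit, which forms peptide bonds. The acidic stalk of the large subunit, made of RPLP0, RPLP1 and RPLP2, recruits the translation factors. In mammals their messages are among the most abundant of the cell and share a terminal oligopyrimidine tract (TOP) at the 5′ end, through which growth signals set their translation together. A few have paralogs with tissue-restricted expression, and others have duties outside the ribosome.

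The RNA was hybridised to 8 Agilent cattle arrays read in one colour. The labels divide them into 4 arrays labelled pregnant and 4 labelled non-pregnant, name every sample female fetal cotyledon (a tuft of placenta on the fetal side), and describe each as taken before pregnancy. The organism is given as Bos taurus, whereas the protocol names buffalo gravid uteri from a slaughterhouse, so by that text buffalo RNA was read with cattle probes. No label gives an age or ties replicates to different animals, and p-values therefore reflect just the scatter among these samples, which may be technical. All 8 arrays lay on 1 slide, the labelled pregnant ones in row 2 and the labelled non-pregnant ones in row 1, and row and group cannot be told apart.

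The tissue markers went against the group names. Trophoblast genes, the markers of the placental epithelium, were lower on the arrays labelled pregnant for 14 of 14 tested, and their summed level was 0.927 to 4.96 on those arrays, against 1376 to 2039 on the arrays labelled non-pregnant (linear units of the array's 75th percentile). CDX2, PEG10, PLAC1 and TKDP1 were not well above background on any array labelled pregnant, and PAG1 was not on any of the 8 arrays. Fetal erythroid genes were lower for 9 of 10, with sums of 0.739 to 2.99 (labelled pregnant) against 337 to 604 (labelled non-pregnant), and cell cycle genes for 9 of 9, with sums of 13.9 to 15.7 (labelled pregnant) against 69.2 to 101 (labelled non-pregnant). Endometrial genes were higher for 6 of 10 and lower for 1 (summed level 121 to 235 labelled pregnant, against 29.1 to 40.0 labelled non-pregnant), and leukocyte genes were higher for 10 of 14 and lower for 1 (52.8 to 131 labelled pregnant, against 67.8 to 93.1 labelled non-pregnant). Smooth muscle genes were higher for 6 of 10 (50.6 to 105 labelled pregnant, against 25.4 to 36.0 labelled non-pregnant) and endothelial genes for 4 of 10, with 2 lower (32.1 to 50.4 labelled pregnant, against 14.3 to 17.0 labelled non-pregnant). The 2 groups therefore differed in the RNA of these cell type markers, although the leukocyte sums overlapped. The part of cell types in the ribosomal protein values was not tested, and fewer cells of a type cannot be told apart from less RNA per cell. Directions below follow the labels as given.

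The probes are 60-base oligonucleotides, and the sequences shown are those of probes whose values are compared in the results. Coordinates are those of the Btau_3.1 build that the file headers name, and no source used here gives the exon or intron status of a probe. The paralog probes show which letters were read for genes with close relatives. The RPS27L sequence is that of its second probe, on chromosome 10 (47231261 to 47231320, plus strand), while its brightest probe lay at 47233517 to 47233576. The others are the brightest probes of RPL10L on chromosome 10 (39669674 to 39669733, minus strand) and RPL3L on chromosome 25 (1990552 to 1990882, minus strand).
RPS27L: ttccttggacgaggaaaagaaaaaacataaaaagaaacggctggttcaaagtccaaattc
RPL10L: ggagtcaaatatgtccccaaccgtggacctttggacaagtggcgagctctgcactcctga
RPL3L: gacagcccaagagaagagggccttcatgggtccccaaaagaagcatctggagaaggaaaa
The RPL39 probe below, from an unplaced scaffold (9620 to 11140, plus strand), is shown because it begins with AATAAA, marked in capitals. These are the letters of the usual polyadenylation signal, but here they are a match of letters alone. Read in triplets from its first base, the probe holds no stop codon before the taa at its end, as coding sequence would.
RPL39: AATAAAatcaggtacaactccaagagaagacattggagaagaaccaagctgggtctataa
Probes for RPL30 on chromosome 14 (64352653 to 64353453 and 64352643 to 64353443, plus strand) overlapped by 50 bases and differed there in 1 base, in capitals, which is A13G counted from the 5′ end of the first.
RPL30 brightest probe: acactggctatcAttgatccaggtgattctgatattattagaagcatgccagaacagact
RPL30 other probe: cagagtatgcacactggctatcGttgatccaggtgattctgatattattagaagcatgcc
Probes on RPL15 (chromosome 27, plus strand) gave opposite signs along the gene, and the brightest (46215488 to 46215547) and the most 5′ one (46213871 to 46214056) read as follows.
RPL15 brightest probe: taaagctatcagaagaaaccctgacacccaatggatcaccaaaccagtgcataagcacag
RPL15 most 5′ probe: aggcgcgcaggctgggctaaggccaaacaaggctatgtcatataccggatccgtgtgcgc
Finally, a pair of RPL10 probes on the X chromosome read the same place on opposite strands (23718039 to 23718098, plus strand, and 23718027 to 23718087, minus strand), and the 49 bases in capitals are each other's reverse complement.
RPL10 sense probe: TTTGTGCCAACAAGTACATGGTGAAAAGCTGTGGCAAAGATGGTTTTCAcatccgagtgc
RPL10 opposite-strand probe: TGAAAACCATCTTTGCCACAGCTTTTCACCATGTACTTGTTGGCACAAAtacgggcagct

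AATAAA lay in the brightest probe of 23 of the 79 members (29.1%), against 14.7% of the brightest probes of all tested genes. Its reverse complement TTTATT, a separate search that covers the other strand, lay in 2 members (2.53%) and 4.41% of all genes. The median difference between groups was 0.35 for members whose brightest probe held AATAAA and 0.44 for the others. The brightest probes of the members had a median GC content of 45.0%, between 35.0% and 55.0%, and those of all genes 43.3%.

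Values below are log2 of the processed intensity minus the array's own 75th percentile, called the log2 signal, for the brightest tested probe of a gene. Differences, labelled pregnant minus labelled non-pregnant, carry a standard error (SE) over n = 4 arrays per group, and a gene was called where limma's adjusted p, over all 34627 tested probes, was below 0.05. Differences of the ribosomal protein genes were small and mostly of 1 sign. Of the 79 members, 76 had a positive difference and 3 a negative one (RPL15, RPS24 and RPS15), with a median of 0.42 (1.34-fold), which was 0.03 when arrays were scaled on their medians and -0.07 without scaling. In limma, 12 members were called higher (15.2%, where 29.9% of all 13197 tested genes were) and 0 were called lower (where 32.9% of all genes were). At an unadjusted p below 0.05, 17 were higher, where 32.0% of all genes were, and 0 were lower, where 35.0% were. For 9 members, all higher, the groups did not overlap, against 28.4% of all genes upward and 31.9% downward. The remaining 70 members had overlapping groups. Without labelled pregnant array 4, 22 members were called higher, and 7 were without labelled pregnant array 1, 2 or 3. The shares of all genes called without these arrays are not given here, so these changes cannot be read as particular to the members.

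The members were spread far less than the other genes. Their differences had an SD of 0.30 and an interquartile range of 0.29 to 0.53, whereas all tested genes had an SD of 2.29 and a median of -0.03. A difference under 0.5 in size was found for 53 members (67.1%) and for 27.6% of all genes. At least 2-fold differences were found for 3 members (3.80%) and for 50.6% of all genes. Among the 356 other genes whose mean log2 signal was at least 5, 13.5% were called higher and 47.5% lower, with a median of -0.53 and an SD of 1.12. All members but RPL3L were well above background on all 8 arrays, no spot was saturated, and the highest member intensity was 409060. The plot of members' differences shows the narrow band and the few genes outside it.

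**Figure D1:**
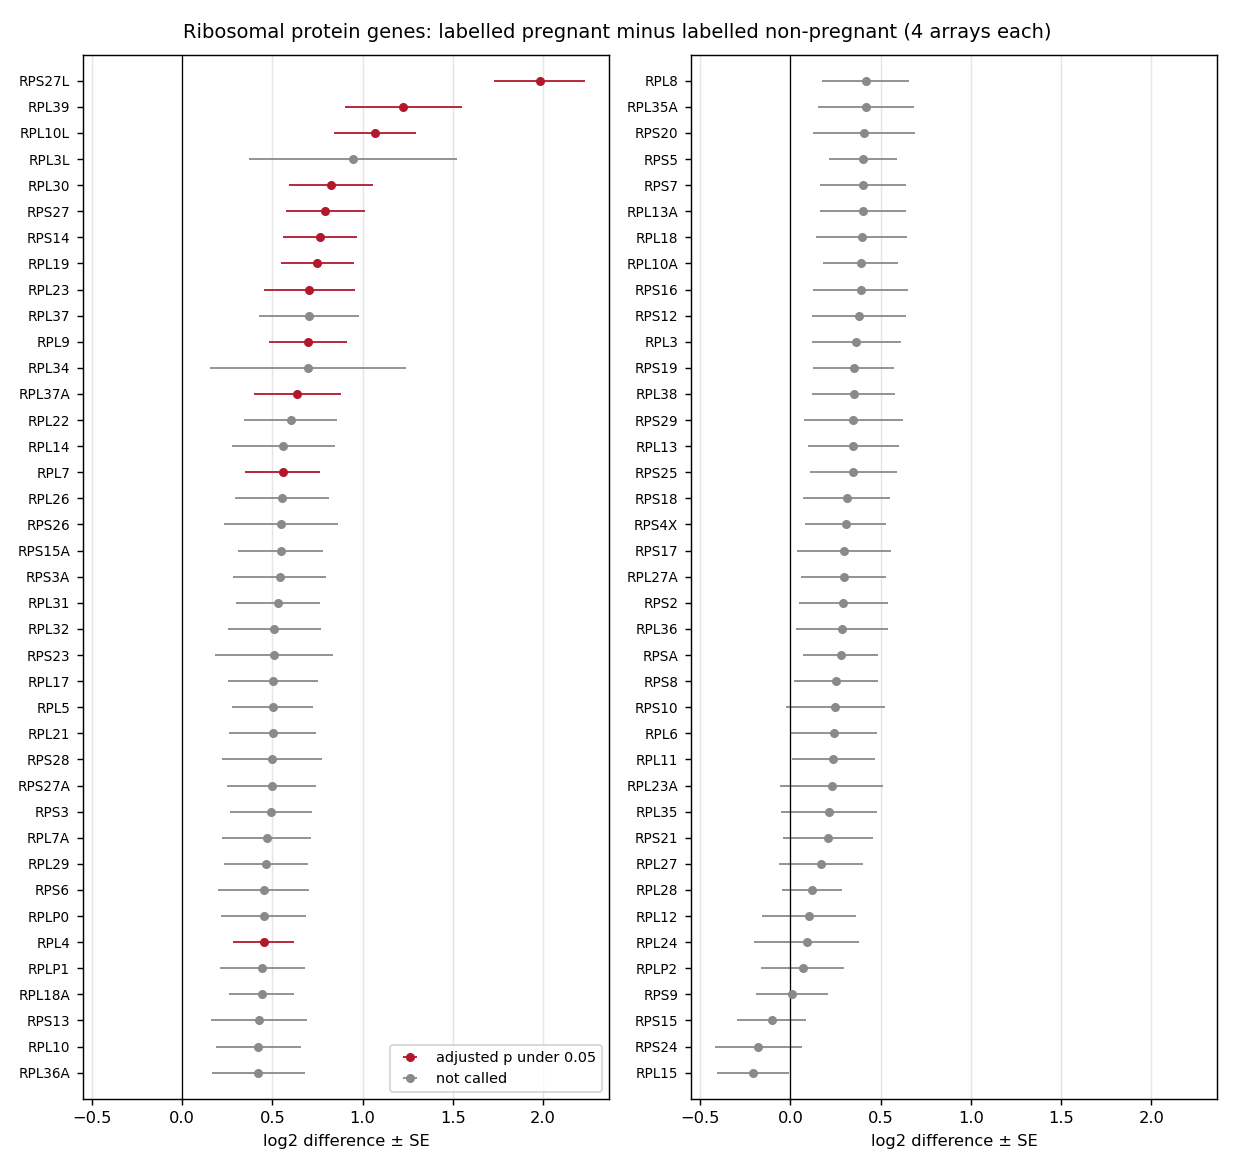
Difference in log2 signal (horizontal axis, labelled pregnant minus labelled non-pregnant, with SE, n = 4 arrays per group) for 78 of the 79 ribosomal protein genes in order of size, red where limma's adjusted p was below 0.05. RPS27L stands apart at 1.98, most genes lie between 0.2 and 0.6, and 3 lie below 0, while without scaling the median of the members, 0.42 here, was -0.07.

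The sign of the family's median difference rested on the scaling. The median of the members lay above that of all tested genes in each of these settings. It was 0.42 against -0.03 here, 0.03 against -0.41 with median scaling, and -0.07 against -0.51 without scaling. The median member had a log2 signal of 7.68, 7.51, 7.46 and 7.06 on the arrays labelled pregnant, against 7.35, 6.995, 7.17 and 6.52 on the arrays labelled non-pregnant. Array 4 was lowest in each group, and the groups overlapped, since labelled pregnant array 4 lay below labelled non-pregnant arrays 1 and 3. The means were 7.43 ± 0.26 on the arrays labelled pregnant and 7.01 ± 0.36 on those labelled non-pregnant (SD, n = 4 each). Before scaling, the same median was 17.42 ± 0.067 on the arrays labelled pregnant and 17.48 ± 0.117 on those labelled non-pregnant, a difference of -0.07. The 75th percentile itself, on the log2 scale, averaged 9.99 ± 0.31 on the arrays labelled pregnant and 10.47 ± 0.29 on those labelled non-pregnant, a difference of -0.48. The brightest tested probes of the members, without their other probes, together held 7.83% to 10.6% of an array's summed signal on the arrays labelled pregnant. On those labelled non-pregnant they held 5.19% to 6.53%, and these ranges did not overlap. That share averaged 9.36% ± 1.14 on the arrays labelled pregnant and 5.97% ± 0.57 on those labelled non-pregnant (SD, n = 4 each), and it also counts what the rest of the array held.

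**Figure D2:**
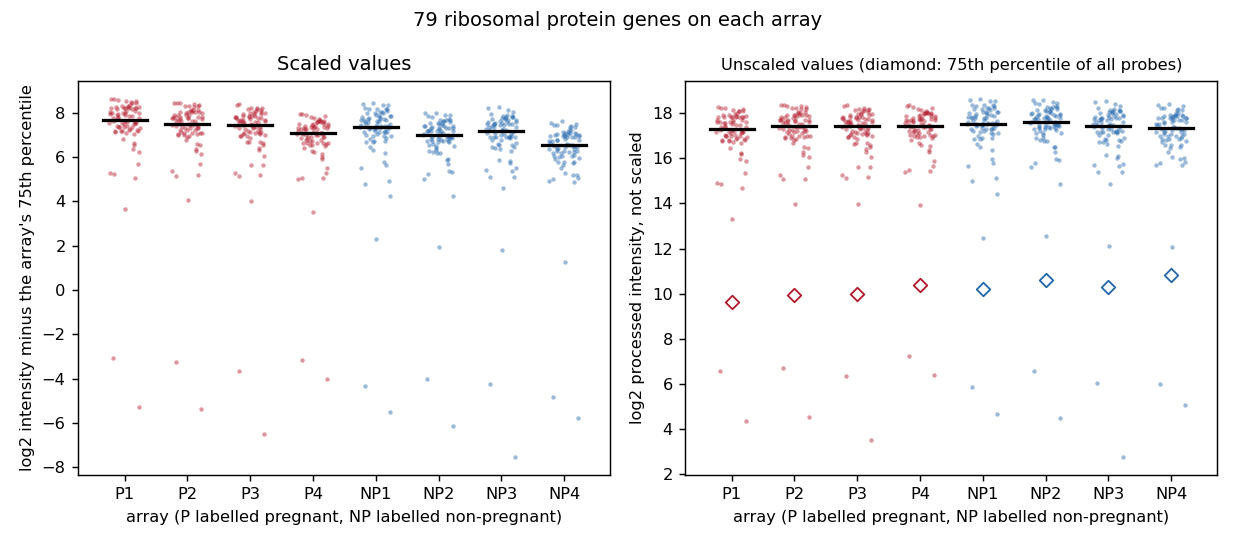
Each point is 1 of the 79 ribosomal protein genes on 1 array (P labelled pregnant, NP labelled non-pregnant), as log2 signal on the left and as unscaled log2 intensity on the right, with black bars for the medians and diamonds for the array's 75th percentile. The scaled medians are 7.06 to 7.68 on the arrays labelled pregnant and 6.52 to 7.35 on those labelled non-pregnant, while the unscaled medians stay between 17.3 and 17.6 on all 8 arrays.

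After scaling, the members of a group shared an order of arrays. Labelled pregnant array 1 was the highest of its group for 68 members (86.1%, where 29.2% of all genes were highest there) and array 4 the lowest for 74 (93.7%, where 43.4% of all genes were lowest there). Labelled non-pregnant array 1 was the highest of its group for 68 members (86.1%, where 39.8% of all genes were) and array 4 the lowest for 73 (92.4%, where 46.6% of all genes were). Before scaling the order differed in part. Among the arrays labelled pregnant, the member median was lowest on array 1 (17.32) and highest on array 4 (17.46). Among those labelled non-pregnant, it was highest on array 2 (17.60) and still lowest on array 4 (17.33). RPL34, a large-subunit protein, departed from this order, with 7.10, 6.93, 5.63 and 6.21 on the arrays labelled pregnant, against 7.05, 6.18, 4.59 and 5.27 on those labelled non-pregnant. For RPL34, replicate 3 was the lowest in both groups and the groups overlapped (0.70, SE 0.54, adjusted p = 0.294 in limma). Replicate 3 was also the lowest in both groups for RPL19 and for the dim RPL3L.

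When each array was scaled on the median of the members, so that a difference is one from the family's own, 3 members were called. RPS27L remained higher (1.57, SE 0.22, adjusted p = 0.000324 in limma), while RPL15 (-0.62, SE 0.21, adjusted p = 0.0306 in limma) and RPS24 (-0.59, SE 0.21, adjusted p = 0.0409 in limma) were lower.

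Among the 31 small-subunit proteins, 2 were called higher (6.45%, where 29.9% of all tested genes were) and 0 lower (where 32.9% were). Their median difference was 0.38. RPS27, a zinc-finger protein of the small subunit, had 7.55, 7.32, 7.19 and 6.89 on the arrays labelled pregnant, against 6.69, 6.50, 6.53 and 6.05 on the arrays labelled non-pregnant. The groups did not overlap (0.79, SE 0.22, adjusted p = 0.0122 in limma), and array 4 was lowest in both. Its brightest probe was placed on chromosome 6 (27446116 to 27446175), while its other probes, on chromosome 3, gave 0.46 (SE 0.23) and 0.06 (SE 0.16) and were not called. RPS14, which lines the path of the message on the small subunit, was read by 1 tested probe with a log2 signal of 7.52, 7.39, 7.37 and 7.06 on the arrays labelled pregnant, against 6.88, 6.66, 6.54 and 6.21 on the arrays labelled non-pregnant. Those groups did not overlap either (0.76, SE 0.21, adjusted p = 0.0106 in limma).

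Several small-subunit proteins with known duties outside the core particle or in disease were not called. RPS6, the substrate of the kinases that report growth signalling, averaged 7.68 ± 0.31 on the arrays labelled pregnant and 7.23 ± 0.38 on those labelled non-pregnant (0.45, SE 0.25). RPS19, the gene most often mutated in human Diamond-Blackfan anaemia, an inherited failure of red cell production, gave 0.35 (SE 0.22). RPSA, also described as a laminin receptor, gave 0.28 (SE 0.21), RPS27A, made as a fusion with ubiquitin, gave 0.50 (SE 0.25), and RPS4X, encoded on the X chromosome, gave 0.31 (SE 0.22). Of the 21 ribosomal protein genes listed for Diamond-Blackfan anaemia in people, RPS27 alone was called higher (4.76%, where 29.9% of all tested genes were). Among these 21 genes, 0 were called lower (where 32.9% of all were), and the median was 0.40. RPS9, a core protein of the subunit, had a difference near 0 (0.01, SE 0.20), its groups overlapped, and its sign turned without scaling, with median scaling and with normexp background. With quantile normalization RPS9 was called higher (0.57, adjusted p = 0.0105 in limma).

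Among the 42 large-subunit proteins, 8 were called higher (19.0%, where 29.9% of all tested genes were) and 0 lower (where 32.9% were). Their median difference was 0.43. RPL39, one of the smallest proteins of the ribosome, at the wall of the peptide exit tunnel, had 6.24, 6.12, 6.06 and 5.50 on the arrays labelled pregnant. On the arrays labelled non-pregnant it had 4.24, 4.26, 5.49 and 5.04. The groups did not overlap, but labelled pregnant array 4 lay just above labelled non-pregnant array 3, and arrays 1 and 2 labelled non-pregnant were the low ones (1.22, SE 0.32, adjusted p = 0.00988 in limma). Its other probes agreed in sign, and the one that begins with AATAAA gave 1.53 (SE 0.46) and the third 1.01 (SE 0.29), both called.

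RPL30, which in yeast also regulates the splicing of its own transcript, had 7.35, 7.15, 7.10 and 6.61 on the arrays labelled pregnant, against 6.47, 6.23, 6.43 and 5.79 on the arrays labelled non-pregnant. The groups did not overlap (0.82, SE 0.23, adjusted p = 0.0140 in limma). Its second probe, which differs by A13G in the overlap, gave 0.91 (SE 0.33) and was also called. RPL19 (0.75, SE 0.20), RPL9 (0.70, SE 0.22) and RPL4 (0.45, SE 0.17), all core proteins of the large subunit, had groups that did not overlap. RPL23 (0.71, SE 0.25), RPL37A (0.64, SE 0.24) and RPL7 (0.56, SE 0.21) were called although their groups overlapped. RPL4 was called in 8 of 20 alternative settings and turned to -0.03 without scaling, while RPL39 was called in 19, RPL19 and RPL30 in 18, RPL9 in 15, RPL23 in 12 and RPL37A and RPL7 in 11.

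RPL5 (0.50, SE 0.22) and RPL11 (0.24, SE 0.23), which form a particle with the smallest ribosomal RNA of the large subunit, were not called. RPL13A, often used as a reference gene, gave 0.40 (SE 0.24), RPL10 0.42 (SE 0.23), RPL3 0.37 (SE 0.25), RPL22 0.60 (SE 0.26), RPL26 0.55 (SE 0.26) and RPL36A 0.42 (SE 0.26), none of them called. RPL24, a protein at the interface of the subunits, had a difference of 0.09 (SE 0.29).

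The stalk proteins did not pass the test. RPLP0, the base of the stalk, averaged 7.99 ± 0.28 on the arrays labelled pregnant and 7.54 ± 0.35 on those labelled non-pregnant (0.45, SE 0.24). RPLP1 averaged 7.99 ± 0.31 on those labelled pregnant and 7.55 ± 0.32 on those labelled non-pregnant (0.44, SE 0.24). RPLP2 averaged 8.15 ± 0.23 on those labelled pregnant and 8.08 ± 0.36 on those labelled non-pregnant (0.07, SE 0.23; SD and n = 4 for all means). The groups overlapped for all 3.

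The paralogs included by the rule held 2 of the 3 largest differences among the called members. RPS27L, a close relative of RPS27, had 3.66, 4.06, 4.003 and 3.52 on the arrays labelled pregnant, against 2.28, 1.93, 1.82 and 1.27 on the arrays labelled non-pregnant. Every array labelled pregnant was above every array labelled non-pregnant (1.98, SE 0.25, adjusted p = 0.000165 in limma), and the call held in all 20 alternatives fitted for single genes. The probe whose sequence is printed above gave 2.05 (SE 0.37) and was also called. RPL10L, the intronless copy of RPL10 that is active in the testis of mice and men, was dim, with -3.09, -3.24, -3.67 and -3.18 on the arrays labelled pregnant. Its values on the arrays labelled non-pregnant were -4.32, -4.04, -4.27 and -4.83. The groups did not overlap, and it was called higher (1.07, SE 0.23, adjusted p = 0.00336 in limma). RPL3L, the form of RPL3 found in striated muscle, was dimmer still, at -5.29, -5.39, -6.48 and -4.02 on the arrays labelled pregnant, against -5.52, -6.15, -7.54 and -5.76 on those labelled non-pregnant, and the groups overlapped. Its spots passed the background flag on 1 array labelled pregnant and on 3 labelled non-pregnant, and was not called (0.95, SE 0.58, adjusted p = 0.185 in limma). Signals of paralogs can include their near-identical partners.

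The paralogs were then set against their partners, as the difference between both genes' log2 signals on each array, a quantity that no scaling by a constant can change. This was tested for 7 pairs with a two-sided exact permutation test, whose smallest possible p is 0.0286, adjusted over the 7 pairs. RPS27L rose relative to RPS27 by 1.19, and RPL10L relative to RPL10 by 0.64 (exact p = 0.0286 and adjusted p = 0.0333 for each). Relative to RPL3, RPL3L differed by 0.58 (exact p = 0.457, adjusted p = 0.457). With quantile normalization, which does not shift an array by a constant, the difference for RPL10L was 0.36 (adjusted p = 0.133).

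For 4 paralogs that the name rule left out, the difference from the partner was negative. RPL22L1 fell relative to RPL22 by 1.46, RPL7L1 relative to RPL7 by 0.99, RPL26L1 relative to RPL26 by 0.88 and RPL36AL relative to RPL36A by 0.75 (exact p = 0.0286 and adjusted p = 0.0333 for each). RPL22L1, which in mice is held down by RPL22, had 0.50, 1.59, 1.27 and 0.53 on the arrays labelled pregnant, against 2.26, 2.10, 1.35 and 1.63 on those labelled non-pregnant. One array labelled pregnant lay above the lowest array labelled non-pregnant (-0.86, SE 0.32, adjusted p = 0.0430 in limma). RPL7L1 differed by -0.44 (SE 0.17, adjusted p = 0.0480 in limma), whereas RPL26L1 (-0.33, SE 0.19) and RPL36AL (-0.32, SE 0.25) were not called on their own. With the detected percentile and with quantile normalization, neither RPL22L1 (-0.69, adjusted p = 0.0797, and -0.72, adjusted p = 0.0718, in limma) nor RPL7L1 (-0.27, adjusted p = 0.168, and -0.16, adjusted p = 0.407, in limma) was called. The plot of pairs shows that the groups overlapped for RPL3L alone among the 7.

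**Figure D3:**
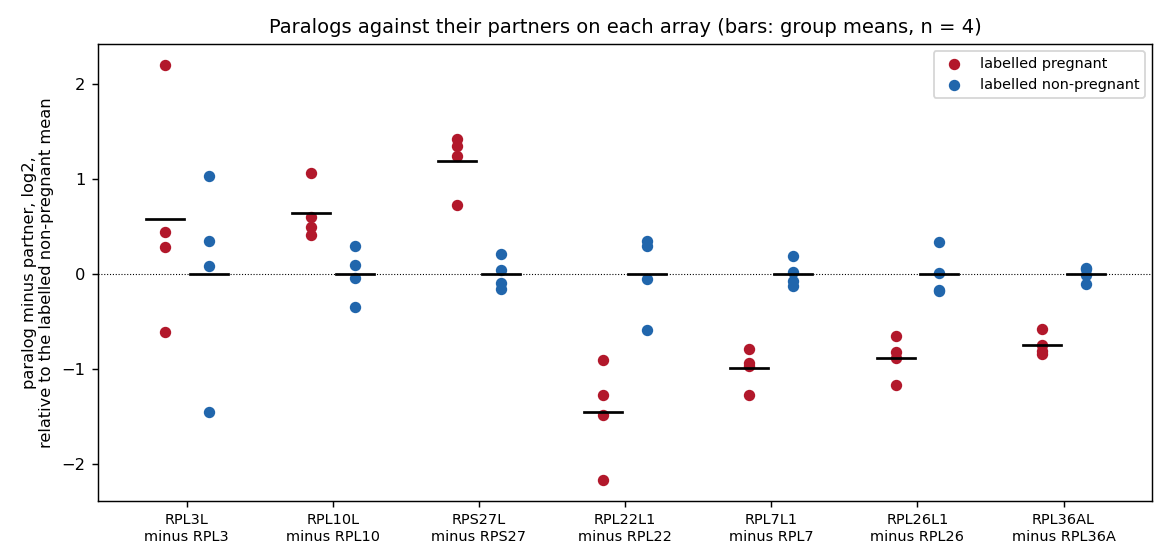
Log2 signal of a paralog minus that of its partner on each array (vertical axis, relative to the mean of the arrays labelled non-pregnant), red for labelled pregnant and blue for labelled non-pregnant, with bars for group means (n = 4). The red points lie above the blue ones for RPL10L and RPS27L, below them for RPL22L1, RPL7L1, RPL26L1 and RPL36AL, and mixed with them for RPL3L.

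Other genes whose products sit on the ribosome but whose names the rule did not take were mixed. RACK1, a signalling scaffold on the small subunit, averaged 5.43 ± 0.26 on the arrays labelled pregnant and 4.32 ± 0.08 on those labelled non-pregnant (1.11, SE 0.19, adjusted p = 0.000818 in limma), and was called with all 6 other backgrounds and scalings. FAU, which yields a ribosomal protein fused to a ubiquitin-like one, gave 0.66 (SE 0.23, adjusted p = 0.0350 in limma). RPS4Y1, the Y-linked counterpart of RPS4X, gave 0.51 (SE 0.20, adjusted p = 0.0479 in limma) although all samples are labelled female, and signals of such close relatives cannot be told apart here. FAU and RPS4Y1 were not called with median scaling or without scaling, nor RPS4Y1 with normexp background.

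Different probes of a gene did not always give the same value. Of the 275 tested probes of the members, 81 were called higher (29.5%, where 30.3% of all tested probes were) and 3 lower (1.09%, where 29.1% were). The share of calls differed with brightness, without a single trend. Probes of the members with a mean log2 signal of at least 7 were called higher in 9 of 91 cases (9.89%, where 10.3% of all tested probes in that range were), with a median difference of 0.41. These shares of all tested probes include the members, which made up 91 of the 145 probes in that range and 82 of 209 from 6 to 7. From 6 to 7, 29 of 82 were called higher (35.4%, where 22.01% of all were), with a median of 0.51, and from 4 to 6, 25 of 51 (49.02%, where 13.9% of all were), with a median of 0.50. From 0 to 4, 13 of 24 were called higher (54.2%, where 24.1% of all were), with a median of 0.68. No member probe in these ranges was called lower. Of all tested probes, 3.45% (at least 7), 22.5% (6 to 7), 49.1% (4 to 6) and 36.0% (0 to 4) were. Among the dim probes below 0, 5 of 27 were called higher (18.5%, where 34.5% of all were) and 3 lower (11.1%, where 24.8% of all were), with a median of 0.08.

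**Figure D4:**
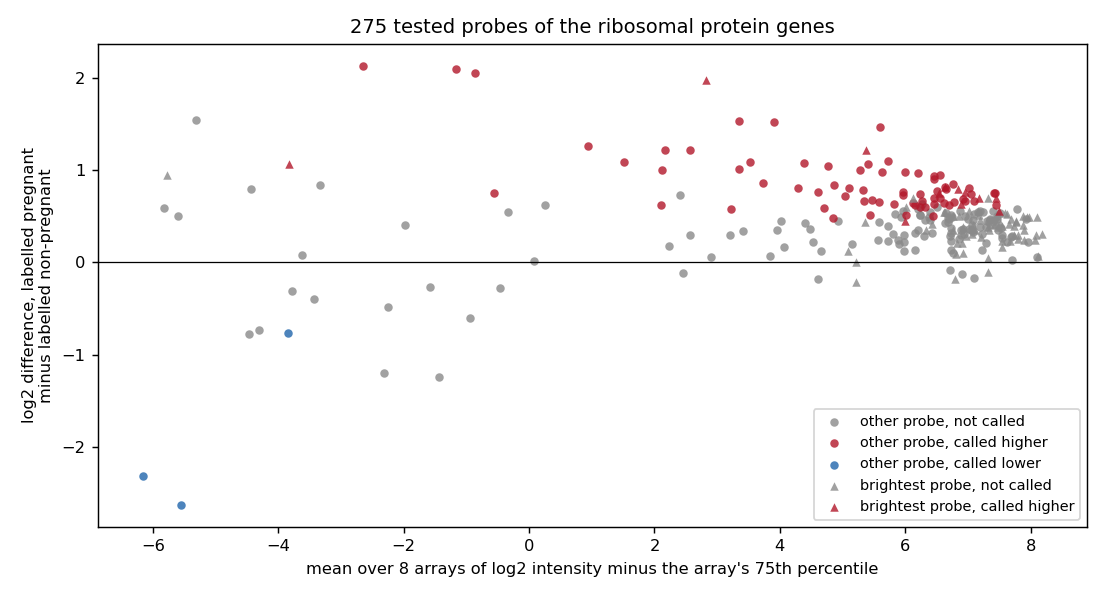
Difference in log2 signal (vertical axis, labelled pregnant minus labelled non-pregnant) against the mean log2 signal over 8 arrays for the 275 tested probes of the members, with triangles for the brightest probe of each gene, red for called higher, blue for called lower and grey for not called. The brightest probes crowd near 0.42 at the right (a median that was -0.07 without scaling), and the 3 probes called lower are all below a mean log2 signal of 0.

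The 3 probes called lower were dim ones of RPL28 (-2.32, SE 0.28), RPL35A (-2.63, SE 0.91) and RPS26 (-0.76, SE 0.29). RPL35A and RPS26 also had probes called higher, at 0.85 (SE 0.25) and 1.102 (SE 0.24) for RPL35A and at 0.70 (SE 0.23) and 0.64 (SE 0.22) for RPS26. The brightest probes of these genes gave 0.12 (SE 0.17) for RPL28, 0.42 (SE 0.27) for RPL35A and 0.55 (SE 0.32) for RPS26 and were not called. The RPL35A probe that was called lower is placed on the X chromosome, away from the others on chromosome 1, and in all 9 members had probes on more than 1 chromosome.

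Probes of RPL15 differed along the gene. Its brightest probe had 5.06, 5.17, 5.18 and 5.04 on the arrays labelled pregnant, against 5.62, 5.39, 5.38 and 4.88 on the arrays labelled non-pregnant (-0.21, SE 0.20), and the most 5′ probe gave -0.18 (SE 0.18). The groups overlapped through labelled non-pregnant array 4, and with quantile normalization the brightest probe was at 0.37 and RPL15 was called higher (adjusted p = 0.0485 in limma). Further along the plus strand, 5 probes between 46216423 and 46217139 were all called higher, by 1.08 to 1.26. Their median was 3.11, 3.28, 3.28 and 3.03 on the arrays labelled pregnant, against 1.97, 1.59, 1.82 and 2.45 on those labelled non-pregnant. The groups did not overlap. RPS24, a small-subunit protein whose transcripts end in alternative exons in people and mice, was split as well, with -0.18 (SE 0.24) for its brightest probe (chromosome 28, 33169075 to 33169134) and 0.64 (SE 0.23, called) for a probe upstream (33166373 to 33166432).

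The position of a probe within a gene was compared for 54 members that had tested probes at least 200 bases apart on 1 strand. The most 5′ probe had the greater difference in 35 of them (64.8%), with medians of 0.60 for the most 5′ and 0.38 for the most 3′ probes. Among 6526 genes of all kinds, 57.3% had the greater difference at the 5′ probe, with medians of 0.03 for the most 5′ and -0.09 for the most 3′ probes. The median gap of the members' 5′ probe below the 3′ probe was -1.34, -1.23, -1.21 and -1.14 on the arrays labelled pregnant, against -1.67, -1.42, -1.60 and -1.39 on the arrays labelled non-pregnant. The gap was smaller in size on every array labelled pregnant than on every array labelled non-pregnant. Over the 6526 genes the same gap was -3.13 to -3.04 on the arrays labelled pregnant, against -3.38 to -2.70 on those labelled non-pregnant, where the groups overlapped.

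Probes that lie on the opposite strand of the gene's other probes were not called. There were 9 of these, for RPL10, RPL27, RPL3, RPL31, RPL35A, RPL38, RPLP0, RPLP2 and RPS12, of which 8 were tested. Their median was -1.58, -1.64, -2.01 and -2.30 on the arrays labelled pregnant, against 0.18, -0.85, -1.25 and -2.99 on those labelled non-pregnant. Labelled non-pregnant array 1 was the highest and array 4 the lowest, and the groups overlapped. The opposite-strand RPL10 probe printed above averaged -1.71 on the arrays labelled pregnant and -1.45 on those labelled non-pregnant (-0.27, SE 0.49), whereas the sense probe at the same place was called higher (1.05, SE 0.23, adjusted p = 0.00384 in limma).

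The rest of the translation machinery did not share the members' narrow range. Assembly factors of the ribosome process its RNA and build the subunits in the nucleolus. On the arrays labelled pregnant, 26 of 42 were called lower (61.9%, where 32.9% of all tested genes were) and 0 higher (where 29.9% were), with a median of -0.79. That direction held with each of 6 other backgrounds and scalings, with 22 to 32 called lower, medians of -1.27 to -0.49, and 1 gene called higher with quantile normalization. The leaders were NIP7 (-2.11, SE 0.32) and TSR1 (-1.92, SE 0.17), both needed for subunit maturation, and the nucleolar GTPase GNL3 (-1.73, SE 0.24). The median assembly factor had 1.02, 1.23, 1.19 and 1.26 on the arrays labelled pregnant, against 2.47, 2.24, 2.18 and 1.92 on those labelled non-pregnant. The groups did not overlap. The gap between the medians of the members and of the assembly factors was wider by 1.44 on the arrays labelled pregnant, a quantity that scaling by a constant leaves as it is. Cell cycle genes were lower on the same arrays by a median of -5.54, and their part in this was not tested.

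Initiation factors, which bring the message and the small subunit together, were lower for 14 of 34 genes (41.2%, where 32.9% of all tested genes were) and higher for 3 (8.82%, where 29.9% were), with a median of -0.54. EIF4B (-1.81, SE 0.24), which assists the helicase that unwinds the message, EIF4G3 (-1.56, SE 0.38), a scaffold of the cap-binding complex, and EIF3B (-1.38, SE 0.20), a core subunit of the eIF3 complex, fell. EIF1B (0.79, SE 0.28), EIF4A2 (0.76, SE 0.17) and EIF3E (0.50, SE 0.19) rose, and none of these was called with median scaling or without scaling, where 0 initiation factors were called higher.

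Elongation and termination factors went both ways, with 3 of 12 called higher (25%, where 29.9% of all genes were) and 4 lower (33.3%, where 32.9% were). The release factor gene GSPT1 averaged 0.32 ± 0.17 on the arrays labelled pregnant and 4.37 ± 0.48 on those labelled non-pregnant (-4.05, SE 0.26), while its relative GSPT2 averaged 0.33 ± 0.29 on those labelled pregnant and -2.50 ± 0.38 on those labelled non-pregnant (2.83, SE 0.25). EEF2K, the kinase that slows elongation, gave -2.82 (SE 0.25), and ETF1, which recognises stop codons, gave -2.62 (SE 0.22). EEF1E1 (0.90, SE 0.29) and EEF1G (0.55, SE 0.17) were called higher, but not with median scaling (0.52 for EEF1E1 and 0.16 for EEF1G) or without scaling (0.42 for EEF1E1 and 0.064 for EEF1G), nor EEF1E1 with quantile normalization (0.51).

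Other messages with a known TOP tract, which share the translational control of the members, had a median of 0.34. They were called higher for 5 of 18 (27.8%, where 29.9% of all genes were) and lower for 2 (11.1%, where 32.9% were). RACK1 led, followed by NAP1L1, a histone chaperone (0.99, SE 0.24), and FAU, while EIF4B and PABPC1, the poly(A) tail binding protein (-1.34, SE 0.20), fell. Their median, like that of the members, was close to 0 with median scaling (-0.05) and -0.15 without scaling. The RNA polymerase I machinery that makes ribosomal RNA was called higher for 1 of 14 genes (TAF1A, 1.34, SE 0.47) and lower for 1 (POLR1D, -0.98, SE 0.21). Each is 7.14% of its genes, where 29.9% of all genes were called higher and 32.9% lower. NAP1L1 and TAF1A were not called with median scaling or without scaling, nor TAF1A with quantile normalization. Among genes of the mTOR and MYC pathways that control ribosome production, 2 of 17 were called higher (11.8%, where 29.9% of all genes were) and 6 lower (35.3%, where 32.9% of all genes were). DEPTOR (1.01, SE 0.30) and TSC1 (0.77, SE 0.28) were higher, and neither was called with median scaling, without scaling or with quantile normalization. The lower ones included MXD4 (-2.56, SE 0.22), MYCN (-2.27, SE 0.39, past the background flag on just 2 arrays labelled pregnant, and -0.79 with normexp background) and AKT1S1 (-1.57, SE 0.26).

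**Figure D5:**
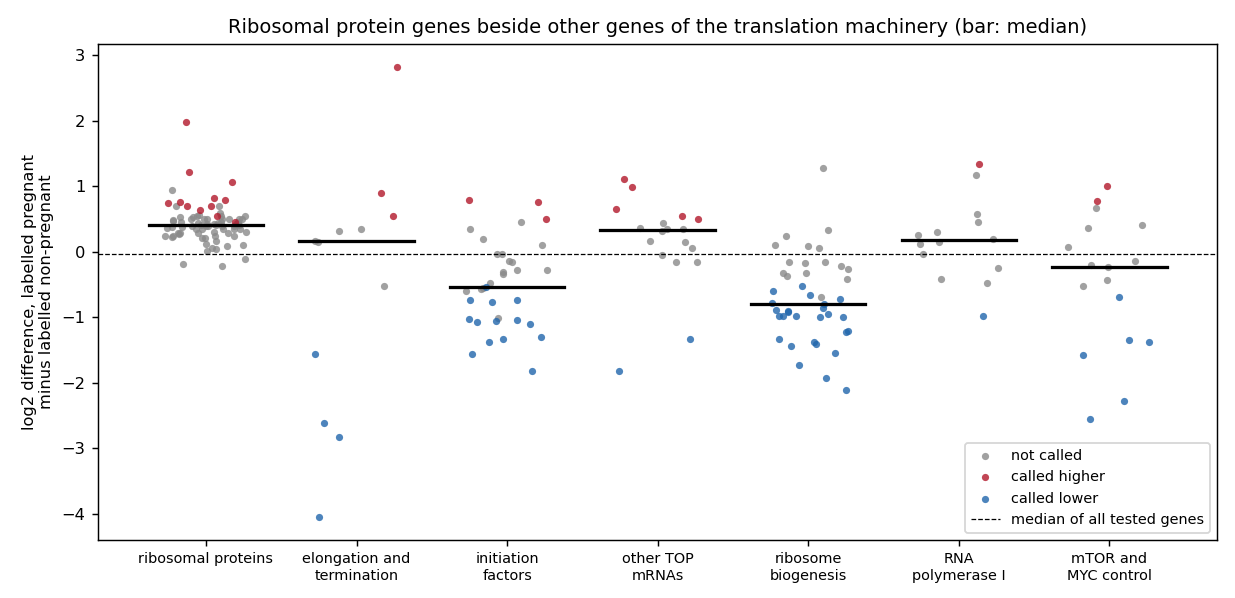
Difference in log2 signal (vertical axis, labelled pregnant minus labelled non-pregnant) for each gene of 7 groups of the translation machinery, red for called higher, blue for called lower and grey for not called, with bars for medians. Ribosomal proteins lie in a narrow band around 0.42 with no blue point (around -0.07 with 3 called lower without scaling), while assembly factors, around -0.79, have 26 blue points and no red one.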

How the data were processed

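The deposited intensity of each spot came from Agilent Feature Extraction 11.5.1.1 (protocol GE1_1105_Oct12, per the file headers), with background subtracted and no scaling between arrays. The deposited flags (0 or 1 per spot) say whether a spot was an outlier, saturated, or well above background. A second deposited table holds log2 values, which correlated at 0.999 or above with the log2 intensity of the same array and had a 75th percentile near 0. Scale and centring of that table are known from this comparison alone, and its medians were -3.56, -3.61, -3.64 and -3.61 for the arrays labelled pregnant and -4.21, -4.01, -4.00 and -3.77 for those labelled non-pregnant.

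For each array, log2 intensity minus the 75th percentile over all probes was taken, after leaving out 1319 control spots and spots flagged as outliers and averaging spots of a probe. Probes well above background (at least 0.5 of their spots) on at least 4 of 8 arrays were tested by lmFit and eBayes of limma 3.58.1 (R 4.3.3), with all 8 arrays and no covariate, with Benjamini-Hochberg adjustment over 34627 probes at 0.05. Names came from the files and a RefSeq table (assembly ARS-UCD2.0, names only), with 248 of the 295 member probes named by accession and 47 by symbol. A gene was represented by its brightest tested probe. On simulated data of 34597 probes the test recovered 7% of log2 changes of 1 and 54% of changes of 2 among 200 changed probes, with 4 false calls, a recovery that holds for so few changed probes and not for these data, where far more probes were called. The number of arrays limits the precision.

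The members, the lists and the tests were chosen with earlier results of these data known. Named members were the 6 largest called differences in each direction, the 4 smallest, a fixed set of well-known members, paralogs and their partners, and members with probes called in opposite directions. Up to 3 called genes in each direction were named for other lists. Remaining names were chosen after their values were seen, and a few genes, 1 of them a member, are counted but not reported here by name or in the plot of members' differences. Alternatives were normexp background (offset 50), other scalings, quantile normalization, the deposited log2 table, other filters, the mean of probes, a replicate block and left-out arrays. Deviations of same-numbered arrays correlated at 0.009, 0.075, 0.050 and 0.155, so the numbers were not taken to pair the samples. Arrays correlated at 0.943 to 0.989 among those labelled pregnant, at 0.957 to 0.987 among those labelled non-pregnant and at 0.736 to 0.783 between groups.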

Additional observations from a re-analysis of the deposited data

Results flagged for a closer look

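RPL9 on labelled non-pregnant array 4 lay apart from its group, at a log2 signal of 6.54, where the nearest of the other 3 arrays had 6.90. The gap was 0.895 of the group's range, above Dixon's critical value for 4 samples. Of 86 groups of 4 arrays examined, 1 stood out in this way, and chance alone gives about 1 in 20. The same array was the lowest of its group for 73 of the 79 members. Without it, 8 members were called higher (the share of all genes is not given here), and RPL9 is described with the other members called higher.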

How the results depend on the processing

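The 20 alternatives fitted for single genes gave 759 values for 38 named members, of which 619 kept their direction and side of the threshold, 54 lost the call, 42 gained one and 44 changed sign. The number of members called higher, 12 in the report, became 1 without any scaling and 2 on scaling by medians. It was 40 where the percentile covered probes detected on all arrays, 34 with quantile normalization, 28 with the mean of a gene's tested probes, 20 when array 4 labelled pregnant and array 3 labelled non-pregnant were dropped, 1 when scaled on the median of members, and 7 to 22 when 1 array was left out. Without array 4 of both groups, an alternative chosen after seeing the data, it was 22. With the replicate block it was 19, although the replicate numbers were not shown to pair the samples. Members called lower numbered 3 without scaling, 1 with the mean of probes, 2 when scaled on the median of members and 0 with any 1 array left out. The shares of all genes called under these settings are not given here. Scaling shifts all genes, so the changes in these counts cannot be read as particular to the members. The median difference of members was 0.033 with median scaling, -0.065 without scaling and 0.25 to 0.54 with 1 array left out. That of all tested genes was -0.41 with median scaling and -0.51 without scaling. The cause of these shifts was not tested.

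Over the other lists, again without the shares of all genes, 2 genes were called higher with median scaling, 2 without scaling, 20 with the detected percentile, 21 with quantile normalization, 14 without array 4 of both groups and 5 to 12 with 1 array left out, and 45 to 55 were called lower with 1 array left out. Initiation factors called lower numbered 23 without scaling, 9 with quantile normalization and 13 to 18 with 1 array left out, and assembly factors 22 to 26.

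Signs changed for RPL4 and for members that were not called in the report. With median scaling the differences were -0.38 for RPS9, -0.32 for RPLP2, -0.30 for RPL24, -0.11 for RPSA, -0.036 for RPS19, -0.15 for RPL11, -0.081 for RPS4X, -0.27 for RPL28 and -0.020 for RPL3. Without scaling they were -0.47 for RPS9, -0.42 for RPLP2, -0.39 for RPL24, -0.033 for RPLP0, -0.041 for RPLP1, -0.21 for RPSA, -0.033 for RPS6, -0.13 for RPS19, -0.25 for RPL11, -0.083 for RPL13A, -0.062 for RPL10, -0.18 for RPS4X, -0.12 for RPL3, -0.063 for RPL36A, -0.067 for RPL35A, -0.37 for RPL28 and -0.034 for RPL4. With normexp background RPS9 was at -0.023, and with quantile normalization RPLP2 was at -0.19 and RPL15 at 0.37 (called higher). With the mean of probes RPL15 was at 0.78 (called higher), RPS24 at 0.063 and RPL28 at -1.10 (called lower), and with the detected percentile RPS15 was at 0.062. With 1 or 2 arrays left out, RPS9 ranged over -0.090 to 0.16, RPLP2 over -0.087 to 0.24, RPS15 over -0.20 to 0.062 and RPL24 over -0.069 to 0.30, and without array 4 of both groups RPS9 was at -0.014.

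The pair difference of RPL10L and RPL10 was 0.36 with quantile normalization (exact test, adjusted p = 0.133) and that of RPL36AL and RPL36A -0.96 with the mean of probes (exact test, adjusted p = 0.0667), so both lost their calls. That of RPL3L and RPL3 was -0.45 when array 4 labelled pregnant and array 3 labelled non-pregnant were dropped, and 0.04 to 0.98 with 1 array left out. The other pairs kept their sign with 1 array left out, at 0.50 to 0.74 for RPL10L, 1.11 to 1.34 for RPS27L, -1.66 to -1.22 for RPL22L1, -1.06 to -0.90 for RPL7L1, -0.96 to -0.77 for RPL26L1 and -0.80 to -0.71 for RPL36AL.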
